A study of Mus musculus with 12 samples.

Results

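The histone genes of the table were taken as the rows whose symbol names a linker histone gene (H1f) or a gene for a core histone H2A, H2B, H3 or H4 (H2ac, H2bc, H3c, H4c) followed by a number. This rule found 72 genes among 56860 named genes: 11 H1, 18 H2A, 18 H2B, 12 H3 and 13 H4 genes. The rule used the symbols alone and no measured value.

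RNA-seq counts per gene were read for 12 libraries of primary oligodendrocytes (OLs), 6 treated with siEgr2, which targets the transcription factor gene Egr2, and 6 treated with the control siNC, each for 48 h. The OLs were O4+ cells enriched with antibody-coated beads from the cortex of newborn C57BL/6J mice (P6–P7), expanded with PDGF-AA and then moved to a differentiation medium, and all of this is shared by both groups. The labels give the tissue as medial prefrontal cortex, while the culture methods speak of cortex, and the reagent is called an siRNA in one place and an interference plasmid in another. Nothing says that the libraries of a group came from separate cultures or litters, so the adjusted p-values measure the spread between these libraries, which may be technical.

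Histones are the proteins around which DNA is wound: pairs of H2A, H2B, H3 and H4 form the core of the nucleosome, and H1 binds the DNA that enters and leaves it. Most of their genes lie in clusters and are transcribed mainly in S phase, when new DNA has to be packed, and their mRNAs end in a stem-loop bound by SLBP in place of a poly(A) tail. A few genes outside the clusters, among them H1f0 and H1f10, are expressed independently of replication and give polyadenylated mRNAs, and H1f0 is known to accumulate in cells that leave the cell cycle. Some clustered genes have also been described to give polyadenylated mRNAs in differentiated cells.

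The stem-loop can be read in the transcript models of GENCODE M21 (GRCm38, the same assembly as the mm10 build that the submitters' processing notes name). It was searched as the letters GGNNNTNNTNANNNCC on the transcript strand, where N is any base and the 6 bases on either side of the loop had to pair, G with T allowed. A match lay in a transcript of 43 histone genes of the 67 with a model, and in 0.905% of all 55341 genes of that annotation. The sequences are shown because the stem-loop is the feature of the mRNA end that the types share. A match does not show that a transcript ends there. Nor does a missing match show that the mRNA lacks a stem-loop, since some models are shorter than the gene. Capitals mark the 16 bases of the stem-loop, 5′ to 3′ on the strand of the gene, T stands for U, and 5 bases on each side are in lower case.
H1f2, capitals at chr13:23739512-23739527 (+): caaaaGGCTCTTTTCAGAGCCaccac
H1f3, capitals at chr13:23555787-23555802 (+): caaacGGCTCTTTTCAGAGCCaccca
H2ac19, capitals at chr3:96239784-96239799 (-): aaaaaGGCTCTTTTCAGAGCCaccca
H2bc12, capitals at chr13:22036300-22036315 (+): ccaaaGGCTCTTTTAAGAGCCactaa
H3c14, capitals at chr3:96247327-96247342 (+): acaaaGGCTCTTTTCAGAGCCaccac
H3c3, capitals at chr13:23745047-23745062 (-): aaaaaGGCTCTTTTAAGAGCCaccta
H4c4, capitals at chr13:23581950-23581965 (+): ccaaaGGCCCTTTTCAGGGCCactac
H4c2, capitals at chr13:23757366-23757381 (+): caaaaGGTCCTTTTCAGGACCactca
Beside the counts of called genes given here, 2.63% of all tested genes were called higher. H1f2, H2ac19 and H3c14, which are not among the called genes below, and H1f3, which is, hold the same 16 bases. That form, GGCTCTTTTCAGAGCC, was found in 24 members of the types H1, H2A, H2B and H3, of which 22 were tested and 7 called higher. The form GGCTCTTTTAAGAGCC was found in 6 members, of which 4 were tested and called, and no difference between the forms was tested. The 11 H4 genes with a match held 4 other forms, of which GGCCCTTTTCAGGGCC, in 6 genes, was the most frequent.

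The libraries differed in depth and in ribosomal RNA along with the treatment. Total counts were 28682946 to 39383014 in the siNC libraries and 8034251 to 16683677 in the siEgr2 libraries, and the 18S rRNA gene Rn18s-rs5 took 0.142% to 1.05% of the counts in siNC and 10.5% to 16.5% in siEgr2. Depth, rRNA share and treatment therefore cannot be told apart in any comparison here. The targeted gene Egr2 had 3.89 to 7.06 CPM (the usual per-library unit, here scaled with TMM factors) in siNC and 2.22 to 4.86 CPM in siEgr2, with a log2 fold change of -0.51 ± 0.21 (SE) that did not pass the test (edgeR adjusted p = 0.098). Markers of OLs were well counted in every library, with a summed level of 9075 to 10137 CPM over 12 genes in siNC and 8773 to 9086 CPM in siEgr2. None of the 12 was called by edgeR, DESeq2 or limma-voom, and at an unadjusted p under 0.05 2 were higher and 7 lower. Astrocyte markers were present too, at 8119 to 8814 CPM over 8 genes in siNC and 5206 to 5870 CPM in siEgr2, so that the cultures were not OLs alone.

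Of the 72 histone genes, 69 had a count in at least 1 library and 56 passed the filter on low counts (edgeR's filterByExpr, here at least 0.441 CPM in 6 libraries). A gene was called when its adjusted p was under 0.05 and its log2 fold change was over 0.5 in either direction, the thresholds of the study. By this rule 23 histone genes were called higher in siEgr2 and 0 lower, where 2.63% of all 16600 tested genes were called higher, 5.08% lower and 7.72% in either direction. At an adjusted p under 0.05 alone, 25 members were higher and 2 lower, and at an unadjusted p under 0.05 32 were higher and 3 lower. DESeq2 called 25 members higher and limma-voom 22, and both called 0 lower. The called members were 1 of 5 tested H1 genes, 7 of 13 H2A, 3 of 16 H2B, 7 of 11 H3 and 5 of 11 H4 genes. Differences between the types were not tested, and 22 of the 23 had a mean level under 1 log2 CPM. In bulk RNA, a change in the number of cells of a kind and a change in the RNA per cell cannot be told apart.

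The filter bears on this count. Of the tested members, 29 exceeded the cutoff in each siNC library, 16 did so in each siEgr2 library but not in each siNC library, and 11 in neither group throughout. These sets held 3, 14 and 6 of the called genes, so the 14 and the 6 would not have been tested on the siNC libraries alone. The median log2 fold change was 0.14 over the first set, 0.70 over the 56 tested members and 0.005 over all tested genes. A median over members that passed in this way is a description and no measure of the whole family. When each library was thinned to the smallest total, 29 members remained testable and 4 were called, H1f3, H2bc12, H3c3 and H4c4.

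**Figure D1:**
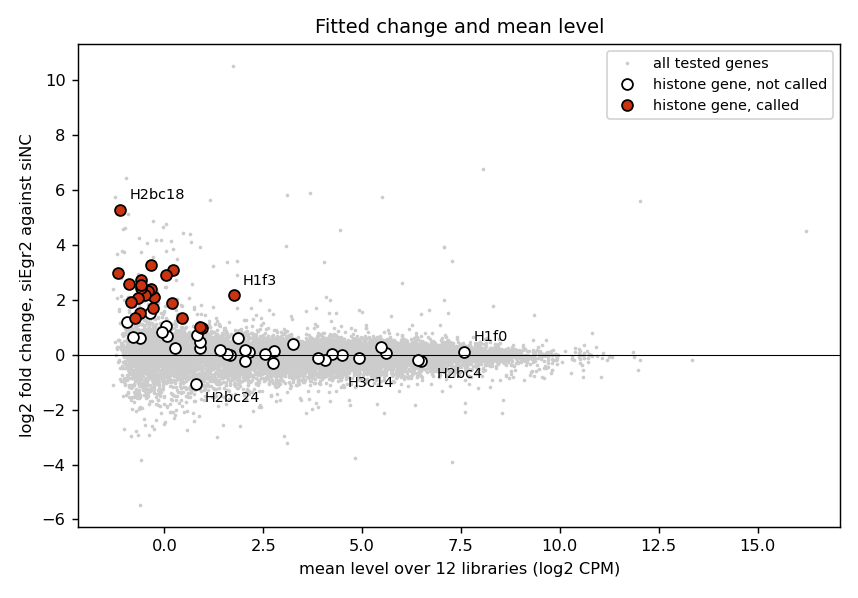
Each point is a tested gene, with its mean level over the 12 libraries on the x axis (log2 CPM) and its fitted log2 fold change of siEgr2 against siNC on the y axis. Grey points are the 16600 tested genes and circles the 56 tested histone genes, filled where called. The called circles sit above the grey band at the left, with H1f3 the only one beyond 1 log2 CPM, while the circles at the right lie near 0.

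The called members were among those with fewer reads, a pattern that the filter shapes in part, since 20 of the 23 did not pass it in each siNC library. Ranked by raw count over the 12 libraries, the first 5 members, H1f0, H2bc4, H1f2, H2ac25 and H1f10, held 70.1% of the 183512 histone counts, and no called gene ranked above the 22nd place. The 23 called genes together had 5010 counts, 2.73% of the total, and between 90 and 719 counts each. Among members with a mean level of at least 3 log2 CPM, 0 of 11 were called (median log2 fold change 0.001), and between 1 and 3 log2 CPM 1 of 11 (0.09). Between 0 and 1 log2 CPM 6 of 13 were called (0.97), and below 0 log2 CPM 16 of 21 (2.10). Among all tested genes the share called higher was 1.63%, 4.30%, 4.53% and 5.10% in these bands, with medians from -0.03 to 0.05. Spearman's rho of mean level and log2 fold change was -0.78 over the 56 members and -0.02 over all tested genes. It is given as a description, since the genes share the same libraries and 13 low members with a count were not tested.

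The called genes rested on few reads. In 19 of the 23 the 6 siEgr2 libraries together had more reads than the 6 siNC libraries, although all siEgr2 libraries held 0.415 times the counts of all siNC libraries. The call and the filter bear on this count, to an extent that was not tested, and it is given as a description. The 23 called genes had a median of 10 counts in a siNC library and 18 in a siEgr2 library, and no more than 63 and 109. Many members share 50-base words, the length of a read, with other genes. With at least 50% of their words in no other gene, 8 of 24 tested members were called, and 15 of 29 under 50%. Over all tested genes 2.63% were called higher. H2ac24 (6.9%), H3c11 (12.4%), H2ac11 (21.1%), H2bc12 (25.8%) and H4c12 (28.5%) are among the 15. How shared reads were counted is not given, so their values are uncertain.

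Summed over all 72 members, the histone level overlapped between the groups. The sum was 613 to 681 CPM in siNC (mean 646 ± 27.6 SD, n = 6) and 661 to 710 CPM in siEgr2 (683 ± 16.9, n = 6). As a share of all counts it was 0.0687% ± 0.00282 in siNC and 0.0640% ± 0.00194 in siEgr2, a difference of -0.0047 percentage points, which became 0.0051 when structural RNA was left out of the totals. The 20 members with the most counts made up 94.0% of the sum and stood at 618 ± 27.9 CPM in siNC and 614 ± 16.7 CPM in siEgr2. The other 52 members together stood at 25.8–31.6 CPM in siNC and at 52.6–83.0 CPM in siEgr2, without overlap and with a ratio of the means of 2.44. The split at 20 members was chosen after their values were seen, and it gets no test.

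By type, the H4 genes alone had sums in CPM that did not overlap between the groups. Their summed level was 16.6 to 22.7 CPM in siNC and 26.8 to 35.8 CPM in siEgr2, a ratio of the means of 1.52. H1 stood at 326 ± 20.2 CPM and 347 ± 11.1 CPM, H2A at 83.8 ± 12.5 and 95.3 ± 12.2, H2B at 155 ± 5.57 and 144 ± 7.03, and H3 at 60.3 ± 14.7 and 66.7 ± 7.87 (mean ± SD, siNC then siEgr2, n = 6 each). As a share of all counts, H4 was still higher without overlap (0.00178% to 0.00240% against 0.00249% to 0.00325%), and H2B was lower without overlap (0.0159% to 0.0174% against 0.0131% to 0.0143%). H1 genes gave 50.6% of all histone counts and H4 genes 3.5%, so the sums of the former types follow a few members with many reads.

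**Figure D2:**
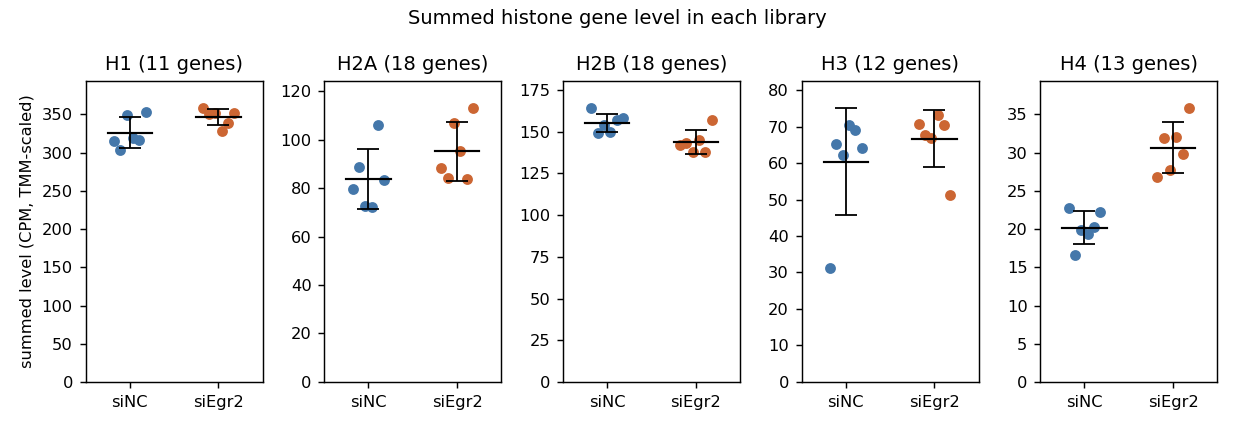
Summed level of the histone genes of each type in each library, in CPM scaled with TMM factors, with siNC and siEgr2 on the x axis. Points are libraries, and bars are the mean ± SD of 6 libraries. The siEgr2 points lie above all siNC points for H4 only, and 1 library of each group lies low for H3.

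Among the linker histone genes, H1f3 was the called one. Its level was 1.60, 1.19, 1.87, 0.878, 1.47 and 1.03 CPM in siNC replicates 1 to 6 and 7.19, 7.08, 2.78, 8.15, 4.10 and 6.73 CPM in siEgr2 replicates 1 to 6. The groups did not overlap, as held for 4.15% of all tested genes in the higher direction, and the lowest siEgr2 libraries were replicates 3 and 5. The log2 fold change was 2.17 ± 0.27 (SE, edgeR adjusted p = 2.8e-05), and the reads behind it were 30 to 58 in each siNC library and 32 to 109 in each siEgr2 library. It is one of the replication-dependent H1 genes and had the most counts of any called member.

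The other tested H1 genes kept to within 0.5 of 0 on the log2 scale. H1f0, the replacement linker histone, was at 178, 172, 196, 189.9, 177 and 199 CPM in siNC and at 198, 201, 212, 174, 208 and 194 CPM in siEgr2. The groups overlapped, with a log2 fold change of 0.09 ± 0.05 (edgeR adjusted p = 0.229). H1f2, a replication-dependent gene, was at 90.2, 84.8, 99.2, 77.7, 91.9 and 98.7 CPM in siNC and at 83.2, 82.1, 81.2, 77.2, 76.2 and 81.3 CPM in siEgr2. Its log2 fold change of -0.17 ± 0.06 (edgeR adjusted p = 0.0472) was under the fold threshold, and the groups overlapped. H1f10, the other tested H1 gene outside the clusters, had 36.5, 36.0, 41.8, 42.8, 38.0 and 44.8 CPM in siNC and 54.2, 48.3, 43.5, 52.3, 38.7 and 55.5 CPM in siEgr2. The groups overlapped through siEgr2 replicates 3 and 5, and the log2 fold change was 0.29 ± 0.09 (edgeR adjusted p = 0.0286). H1f4 stood at 8.37 ± 1.03 CPM and 10.9 ± 1.61 CPM (log2 fold change 0.38 ± 0.12, edgeR adjusted p = 0.0387).

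The other H1 genes were not tested. H1f5 had 60 counts in all siNC libraries and 114 in all siEgr2 libraries, and H1f1 had 34 and 93. The germ cell genes had few or none: H1f6 had 16 and 5, H1f9 had 2 and 0, and H1f7 and H1f8 had 0 in all libraries.

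In the H2A family the 7 called genes were all higher in siEgr2, by 1.33 to 3.27 on the log2 scale. Among them H2ac13 lost its call in 11 of the 19 alternatives that tested it, limma-voom, no filter, the replicate block and 8 fits without 1 library. H2ac12 lost it with no filter and with the block, and H2ac4 without siEgr2 replicate 6. The largest was H2ac15, at 0.180 ± 0.163 CPM in siNC and 1.78 ± 1.34 CPM in siEgr2 (log2 fold change 3.27 ± 0.80, edgeR adjusted p = 0.00897). Its groups overlapped, and the limma-voom fit did not call it (adjusted p = 0.218). H2ac24 went from 0.288 ± 0.107 to 1.56 ± 0.432 CPM (2.41 ± 0.36, adjusted p = 0.00017) and H2ac11 from 0.359 ± 0.0900 to 1.58 ± 0.736 CPM (2.10 ± 0.38, adjusted p = 0.00078), both without overlap.

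The H2A genes with the highest level were not called. H2ac25 was at 50.1, 43.1, 43.6, 45.4, 51.7 and 49.6 CPM in siNC and at 49.8, 47.3, 53.5, 48.8, 51.2 and 48.0 CPM in siEgr2, a log2 fold change of 0.08 ± 0.06 (edgeR adjusted p = 0.421). H2ac19 had 22.5 ± 1.62 CPM and 22.5 ± 2.85 CPM, and H2ac6 2.46 ± 0.648 CPM and 2.78 ± 0.802 CPM. The 2 testis-type genes differed in whether they were seen: H2ac1 had 0 counts in all libraries and its partner H2bc1 20 counts in siNC and 16 in siEgr2.

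Of the 16 tested H2B genes 3 were called. H2bc18, in the cluster on chromosome 3, had the largest value of all members, with 2, 1, 0, 0, 2 and 0 raw counts in the siNC libraries and 17, 25, 14, 10, 6 and 14 in the siEgr2 libraries. Its fitted log2 fold change was 5.27 ± 0.63 (edgeR adjusted p = 1.9e-05), which at such counts depends on the prior count of the fit. H2bc3 rose from 0.110 ± 0.118 to 0.899 ± 0.247 CPM (2.99 ± 0.58, adjusted p = 0.00137). H2bc12 was at 1.16, 1.65, 0.999, 1.49, 1.34 and 1.05 CPM in siNC and at 2.62, 2.28, 2.29, 2.02, 3.07 and 3.41 CPM in siEgr2. Its groups did not overlap, and the log2 fold change was 1.02 ± 0.23 (edgeR adjusted p = 0.00447).

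H2bc4 was the one member with every siEgr2 library under every siNC library, as held for 7% of all tested genes. It stood at 101, 92.9, 98.3, 88.7, 98.2 and 99.6 CPM in siNC and at 78.7, 75.1, 81.8, 82.8, 83.7 and 87.2 CPM in siEgr2. The log2 fold change was -0.24 ± 0.05 (edgeR adjusted p = 0.00164), a fold of 0.845 that is under the fold threshold. H2bc27 (0.03 ± 0.09) and H2bc8 (-0.11 ± 0.10), the next by level, did not pass the test. H2bc24 had the lowest fitted value of all members, -1.06 ± 1.36, and its libraries held between 0 and 171 counts.

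Of the 11 tested H3 genes 7 were called. H3c3 was at 0.320, 0.336, 0.129, 0.381, 0.0982 and 0.479 CPM in siNC and at 1.88, 1.47, 1.91, 3.44, 1.79 and 4.78 CPM in siEgr2. The groups were far apart, with a log2 fold change of 3.08 ± 0.42 (edgeR adjusted p = 7.3e-05). H3c8 followed with 2.55 ± 0.64 and H3c1 with 2.44 ± 0.48, and H3c8 lost its call with the replicate number as a block (adjusted p = 0.0532) and was tested in only 14 of the alternatives, with 8 in which it did not pass the filter.

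The groups of H3c8 overlapped. Those of H3c11 and H3c2, which had more reads, overlapped too. H3c11 was at 0.523, 0.580, 0.387, 0.381, 0.622 and 0.694 CPM in siNC and at 2.42, 2.69, 2.04, 2.09, 0.512 and 1.95 CPM in siEgr2 (1.88 ± 0.34, edgeR adjusted p = 0.000869). The siEgr2 library among the siNC values was replicate 5, the one with the fewest counts, where H3c11 had 4. H3c2 was at 1.075, 0.519, 0.387, 1.84, 0.458 and 0.599 CPM in siNC and at 2.69, 2.69, 1.67, 2.39, 0.896 and 1.95 CPM in siEgr2 (1.34 ± 0.40, edgeR adjusted p = 0.0262). Its call was lost in 7 of the 12 fits that left out 1 library, siNC replicates 2, 3, 5 or 6 or siEgr2 replicates 1, 2 or 4, with adjusted p-values from 0.0525 to 0.0614.

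The 3 H3 genes with the highest level, H3c14, H3c15 and H3c4, were not called. H3c15 had 17.7 ± 0.495 CPM in siNC and 15.5 ± 1.93 CPM in siEgr2 (-0.19 ± 0.09, edgeR adjusted p = 0.131), and H3c4 had 4.22 ± 0.848 and 4.50 ± 0.537 CPM (0.09 ± 0.16). H3c14 was at 0.407, 38.0, 35.8, 38.9, 41.0 and 34.9 CPM in siNC and at 31.8, 32.9, 34.7, 32.7, 35.2 and 5.26 CPM in siEgr2. Libraries of a group lay close together except for siNC replicate 1 and siEgr2 replicate 6.

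These 2 libraries also stood apart in the counts of an overlapping annotation. The processed transcript Gm20634 overlaps H2ac18 and H3c14 on the same strand of chromosome 3, and it had 2572 counts in siNC replicate 1 and 263 in siEgr2 replicate 6, against 0 to 18 in the other 10. H3c14 had 14 and 54 counts there, and 275 to 1457 elsewhere. The counts of H2ac18, H3c14 and Gm20634 together were 2601 in siNC replicate 1 against 1111 to 1974 in the other siNC libraries, and 498 in siEgr2 replicate 6 against 275 to 914 in the others. Whether reads moved from one annotation to another was not tested. H2ac18 was counted in some libraries and not in others, with 15, 493, 0, 0, 716 and 0 counts in siNC and 0, 0, 335, 0, 0 and 181 in siEgr2, and it was not tested. Its near copy H2ac19, which shares every 50-base word of its models with another gene, stayed between 675 and 1056 counts in siNC and 150 and 349 in siEgr2. Without the 2 libraries the log2 fold change of H3c14 was -0.17 (edgeR adjusted p = 0.0925), and 21 members were called in place of 23, of which 20 were among the 23. How reads shared by overlapping or near-identical genes were counted is not given in the sources used here, so single values of such copies are uncertain.

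**Figure D3:**
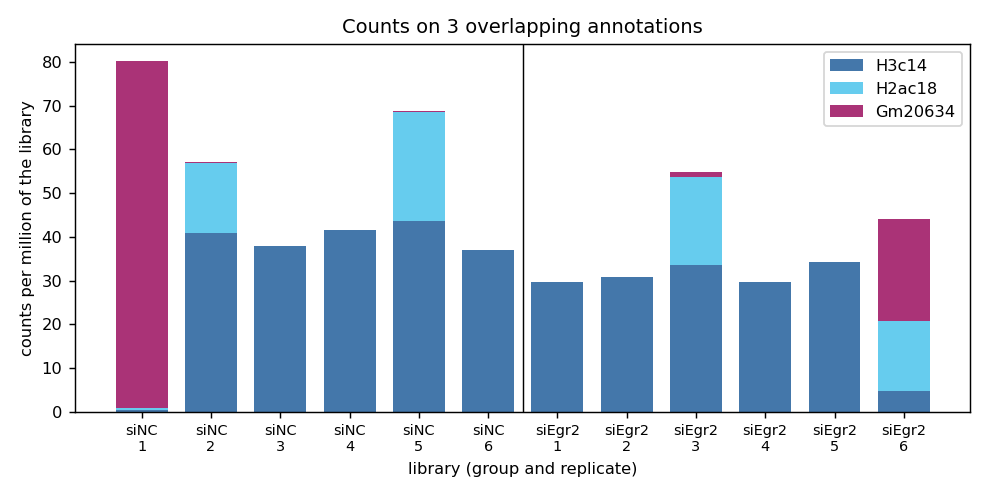
Counts scaled to the library total (CPM, no TMM factor) on H3c14, H2ac18 and the overlapping transcript Gm20634, stacked, for each of the 12 libraries (x axis, group and replicate). Nearly all of siNC replicate 1 and the largest part of siEgr2 replicate 6 were counted on Gm20634, while the other libraries have little or none of it.

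Among the H4 genes 5 of 11 were called. H4c4 rose from 0.288 ± 0.134 to 2.17 ± 0.537 CPM, from 6 to 15 reads in each siNC library and 12 to 38 in each siEgr2 library (log2 fold change 2.91 ± 0.36, edgeR adjusted p = 2.6e-05). H4c1 (2.73 ± 0.57) and H4c3 (2.57 ± 0.52) were next, with summed counts of 40 and 37 in siNC and of 104 and 76 in siEgr2. H4c12 was at 1.31, 1.25, 1.80, 1.43, 1.21 and 1.17 CPM in siNC and at 2.55, 3.09, 2.66, 1.35, 3.71 and 2.83 CPM in siEgr2. The groups overlapped through siEgr2 replicate 4, and the value of 0.97 ± 0.25 (edgeR adjusted p = 0.0102) lost its call after thinning (0.70, adjusted p = 0.238). H4c9, H4c17 and H4c8, the members with the highest level, had 0.14 ± 0.14, -0.23 ± 0.19 and 0.61 ± 0.24 and were not called.

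**Figure D4:**
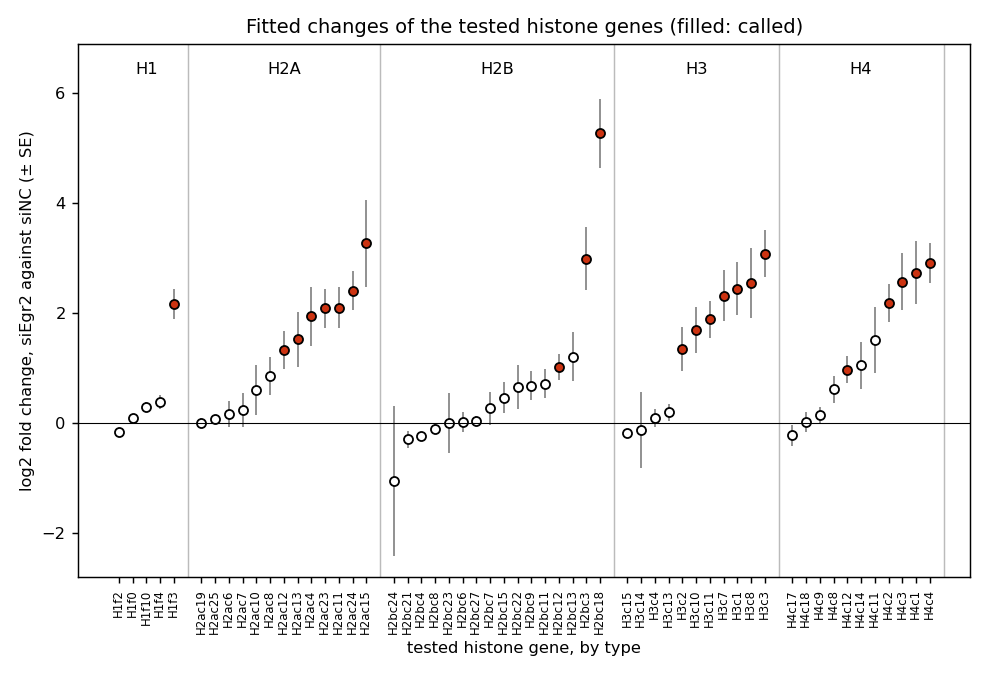
Fitted log2 fold change of siEgr2 against siNC (y axis, bars are ± SE) for each tested histone gene, ordered within its type along the x axis, filled where called. The filled points are all above 0, with 7 of 11 in H3, 7 of 13 in H2A and 3 of 16 in H2B, and H2bc24 and H3c14 have the widest bars among the H2B and H3 genes.

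**Figure D5:**
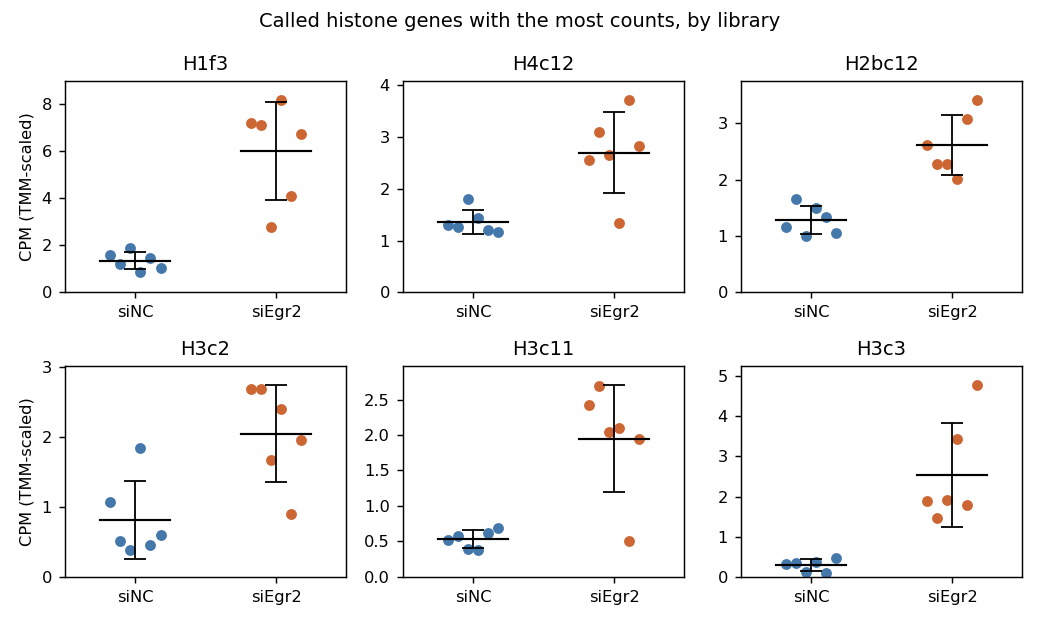
Level in CPM (TMM-scaled) of the 6 called histone genes with the most counts, with siNC and siEgr2 on the x axis. Points are libraries and bars are the mean ± SD of 6 libraries. H1f3, H2bc12 and H3c3 do not overlap between the groups, and H4c12, H3c2 and H3c11 do.

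Of the members that were not tested, 13 had a count. Their mean CPM was higher in siEgr2 for 10 of them, and 8 had more raw counts in siEgr2. H3c6 had 57 counts in siNC and 118 in siEgr2, H4c6 27 and 59, and H2ac20 17 and 38, of which 24 were in 1 library.

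By place in the genome, 63 members lay in 3 clusters (RefSeq, GRCm38.p6). The cluster at chr13:23531044-23934913 held 31 members, of which 25 were tested and 12 called higher, against 2.63% of all tested genes, and H2bc4 had its most counts. The summed level of this cluster was 236 ± 14.3 CPM in siNC and 237 ± 12.5 CPM in siEgr2, and the groups overlapped. The cluster at chr13:21715711-22043658 held 22 members, of which 19 were tested and 10 called, with H4c9 the member with the most counts. The sum over this cluster was higher in every siEgr2 library, 33.7 to 53.4 CPM against 23.6 to 29.8 CPM. The cluster at chr3:96219885-96270192 held 10 members, of which 7 were tested and H2bc18 alone was called, and H3c14 had the most counts. Its sum was 90.1 ± 20.7 CPM in siNC and 86.6 ± 7.84 CPM in siEgr2. H1f0 and H1f7 on chromosome 15 and H1f8 and H1f10 on chromosome 6 each stand alone, and H1f7 and H1f8 had 0 counts.

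Many H2A and H2B genes lie head to head and share the stretch between their starts, 163 to 280 bases long in the 11 pairs found. In the 8 pairs with both genes tested, both were called in 1 pair, the H2A gene alone in 4, and neither in 3, beside 2.63% of all tested genes called higher. These counts rest in part on H2ac12, H2ac13 and H2ac15, whose calls were lost in some alternatives, and with the replicate block no pair had both genes called. H2ac12 and H2bc12 had log2 fold changes of 1.33 ± 0.35 and 1.02 ± 0.23. H2ac15 and H2bc15 had 3.27 ± 0.80 and 0.45 ± 0.28, and H2ac23 and H2bc23 2.09 ± 0.35 and -0.002 ± 0.55. Only 6.5% of the 50-base words of H2ac23 and 1.5% of those of H2bc23 occur in no other gene, and H2bc23 had 0 counts in 1 library and H2bc24 in several, so the values of these copies are uncertain. The difference within a pair was not tested.

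The promoters of the members were searched on both strands for TATAAA, for CCAAT and for the octamer ATTTGCAT, a binding sequence of Oct factors that is known from H2B promoters. In the 62 members with a promoter of 300 bases in the RefSeq table (GRCm38.p6, 250 before the start and 50 after it), TATAAA was found in 34 (54.8%), CCAAT in 51 (82.3%) and the octamer in 13 (21%). Among all 27025 promoters the shares were 15.67%, 41.06% and 1.97%. The octamer was in 6 of 17 H2A and 7 of 14 H2B promoters and in 0 of the H1, H3 and H4 promoters, and a match between a head-to-head pair can count for both genes. The sequences below are those of called genes, with the motif in capitals and on the strand of the gene.
H2bc12, octamer, chr13:22035781-22035808 (+): atttcactttATTTGCATacgaagttct
H2bc18, octamer, chr3:96269642-96269669 (+): gtgaaacctcATTTGCATacaagctcta
H1f3, TATA, chr13:23554996-23555021 (+): cttctctctaTATAAAcccagagcct
The window of H2bc12 is also that of H2ac12, read on the other strand. The matches are descriptions of the sequence and say nothing of what bound there.

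The members were also grouped by how their transcript models end, a grouping made after the values were seen and on an annotation that need not be the one used for counting. Beside 2.63% called higher over all tested genes, the counts were as follows. Of 23 members whose model ends within 100 bases of the stem-loop, 19 were tested and 11 called. Of 20 whose model runs further, 18 were tested and 5 called, and of 24 with no stem-loop in the model, 16 and 7. The models of these 7 called genes are 312 to 411 bases long, and the genes themselves span 409 to 536 bases in RefSeq. All 7 lie in the clusters, and their short models do not show that the mRNAs lack a stem-loop. A poly(A) signal (AATAAA) within 30 bases of a model's end was found in 14 members, of which 12 were tested and 1, H4c1, was called. Of the 53 members with a model but no such signal, 41 were tested and 22 called. H1f2 is of the former kind, with 840 bases after the stem-loop, and so is H3c14, with 1167.

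Structural RNAs with no poly(A) tail, or with a short one in the mitochondrial rRNAs, were higher in siEgr2 as well. All 8 tested genes of a list of 11 such RNAs (rRNAs, 7SL, 7SK, RNase P and MRP RNAs, mitochondrial rRNAs) were called higher in siEgr2, with log2 fold changes of 1.45 to 4.50 and a median of 3.67. The mitochondrial rRNAs mt-Rnr1 and mt-Rnr2, which carry short tails, had the smallest values of the 8, 1.77 and 1.45. No siEgr2 library overlapped with a siNC library in any of the 8. Over all tested genes 2.63% were called higher and 4.15% were higher without overlap. The part of this in the values of the called histone genes was not tested, and it cannot be told apart from the treatment.

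A few cell cycle genes were called higher too, beside 2.63% of all tested genes. Of 45 DNA replication genes, all tested, 5 were called higher and 0 lower by edgeR (6 and 0 by DESeq2, 5 and 0 by limma-voom, and 35 and 0 at an unadjusted p under 0.05), with a median log2 fold change of 0.35 and a range of 0.07 to 0.92. The called ones were Rfc4 (0.57 ± 0.10), a clamp loader subunit, Ccne2 (0.56 ± 0.11), a cyclin of the G1/S transition, Cdt1 (0.53 ± 0.13), a licensing factor, Pole (0.51 ± 0.07), a replicative polymerase, and Clspn (0.50 ± 0.07), a checkpoint adaptor. Of 18 mitotic genes 4 were called higher, Aurkb (0.69 ± 0.09), Cdk1 (0.57 ± 0.08), Bub1 (0.55 ± 0.08) and Cenpe (0.53 ± 0.06). Without overlap between the groups, 17 of these 18 and 16 of the 45 replication genes were higher, beside 4.15% of all tested genes. The summed level of the replication genes was 1542 to 1703 CPM in siNC and 1982 to 2189 CPM in siEgr2. That of the mitotic genes was 1377 to 1543 CPM and 1899 to 2028 CPM. As shares of all counts both sums were also higher without overlap (0.163% to 0.181% against 0.183% to 0.205%, and 0.147% to 0.164% against 0.173% to 0.19%). Markers of OL precursors, which divide, stood at 2837 to 3234 CPM over 7 genes in siNC and at 3543 to 3847 CPM in siEgr2 (as a share of all counts 0.301% to 0.347% and 0.322% to 0.373%, with overlap), with Pdgfra (0.56 ± 0.04) and Cspg4 (0.56 ± 0.05) called. The part of cell number or cell type in the histone values was not tested.

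The replacement histones are as a group made outside S phase as well as in it, and most have polyadenylated mRNAs. Of 12 listed genes 11 were tested, 1 was called higher, beside 2.63% of all tested genes, and all 11 had values above 0, with a median of 0.28. Cenpa, the H3 of the centromere, was the called one, at 32.3 ± 5.35 CPM in siNC and 51.1 ± 4.57 CPM in siEgr2 (0.66 ± 0.10, edgeR adjusted p = 0.000225). H2ax, which marks DNA breaks when phosphorylated, had 0.36 ± 0.05, and H3f3a and H3f3b, which encode the same H3.3 protein, had 0.16 ± 0.06 and 0.17 ± 0.05. The list holds H1f0 and H1f10, which are members as well.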

How the data were processed

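Poly(A) selection, aligner, counting program and annotation are not given in the sources used here. Total RNA was extracted with TRIzol and sequenced with 50-bp reads. The authors deposited raw counts per gene symbol for 12 libraries, and the submitters' processing notes name mm10. A blank row (1) was left out. From these counts, genes were filtered (filterByExpr), scaled with TMM and fitted with edgeR 4.0.16 (quasi-likelihood, robust, R 4.3.3), siEgr2 against siNC with no covariate, with Benjamini-Hochberg adjustment over 16600 genes. SEs were taken as the log2 fold change over the square root of the F statistic. CPM values are scaled with TMM and are not divided by length. Ranks and bands of genes by CPM therefore order them by reads and not by transcript abundance. The fit was tested on simulated data. No 2 libraries of a group were alike: the chi-square per gene was 7.54 to 42.2. Intervals of counting error are not given, since depth differed with treatment. limma 3.58.1, DESeq2 1.42.0, other factors, filters, a thinned table and fits without single libraries were alternatives. Positions were read from RefSeq (67 members matched) and GENCODE M21 (67), and H1f9, H2ac25, H2bc24, H2bc27 and H4c16 were not matched.

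Named genes were, in each type, the 3 tested members of highest level and the 3 called members of largest change, the tested H1 genes and the top member of each cluster, with values per library for the 6 of highest level and the 6 called with most counts, and untested members by summed counts. H2bc24, H2bc15, H2ac23, H2bc23, H2ac12, H2ac13, H2ac4, H2bc1, H2ac1, H2ac18, H3c6, H4c6, H4c2, H2ac20 and Gm20634 were added after their values were seen. The members and gene lists were chosen with earlier results of these data known.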

Additional observations from a re-analysis of the deposited data

Results flagged for a closer look

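In 8 of 76 groups of 6 values examined (named genes and sums by type, CPM), 1 library stood apart from the others by more than Dixon's critical share of the group's range, where chance gives about 1 in 20. H3c14 had 0.407 CPM in siNC replicate 1 against 34.9 to 41.0 CPM in the others, and 5.26 CPM in siEgr2 replicate 6 against 31.8 to 35.2 CPM. The H3 sum stood apart in the same libraries, with 31.1 CPM against 62.1 to 70.5 CPM and 51.3 CPM against 67.0 to 73.3 CPM. Both are libraries with most of the counts of H2ac18, H3c14 and the overlapping Gm20634 on Gm20634 (2572 and 263, against 0 to 18 in the others). siEgr2 replicate 6 was also highest for H2bc8 (17.9 CPM against 12.6 to 14.3) and for the H2B sum (157 CPM against 138 to 145). H2bc27 had 20.4 CPM in siNC replicate 1 against 17.6 to 18.6, and H3c11 0.512 CPM in siEgr2 replicate 5 against 1.95 to 2.69.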

How the results depend on the processing

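The 23 called histone genes became 7 with the stricter filter (at least 1 CPM in 6 libraries, 32 members tested) and 4 after thinning (29 members tested), and the median of the tested members, 0.70, became 0.16 and 0.13. Both alternatives test fewer low members. All 7 called with the stricter filter and all 4 called after thinning were among the 23. Without single libraries there were 23 to 28 called members, with medians of 0.754 to 0.997, and 20 to 23 of the 23 kept their call. The filter then asks for fewer libraries, and its cutoff moves with the median library size. Without a siNC library 55 or 56 members were tested, and without a siEgr2 library 61 or 62. The other alternatives called 20 to 25 higher, and 0 members were called lower in each except adjusted p alone, which gave 2. Over all genes, 1281 calls became 1974 with library sizes alone, where the median of all genes moved to -0.18, 3300 at an adjusted p alone and 373 at a log2 fold change over 1, and 1114 to 1339 without single libraries. Of the 23 called members, 16 lost no call in any fit that tested them.

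The summed histone share, siEgr2 minus siNC, was -0.0047 percentage points, and 0.0037 on TMM effective sizes, 0.0051 without structural RNA, -0.0009 without its 2 largest members and -0.0054 to -0.0040 without single libraries. The direction therefore depends on whether rRNA is part of the total.

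With library sizes alone the log2 fold changes of H1f0 (-0.086), H2ac25 (-0.11), H2ac19 (-0.18), H2ac6 (-0.016), H2bc27 (-0.15), H3c4 (-0.094) and H4c9 (-0.038) changed sign, none of them called. After thinning H2ac6 (-0.070), H2bc27 (-0.15) and H4c9 (-0.19) did so, and without a filter H2ac19 (-0.043) and H2bc27 (-0.010). H2ac19 was -0.004 with limma-voom, -0.057 to 0.038 without single libraries and -0.05 without siNC replicate 1 and siEgr2 replicate 6 together, which was added once the values were known and gave a median over the members of 0.642. H2bc27 was -0.023 to 0.083 and H3c14 -0.39 to 0.084 without single libraries, and H3c14 was 0.54 with limma-voom. H4c8 was called (0.71, adjusted p = 0.0469) without siEgr2 replicate 5. For these the cause was not tested.

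Replicate numbers are shared between the groups, but the same-number correlations of deviations were -0.0388 to 0.0422 and only 2 of 6 numbers fitted best with their own, so the numbers do not pair libraries. With the replicate number as a block 20 members were called higher and 0 lower, all 20 among the 23, with 1124 genes called and a median of 0.698. H2ac19 (-0.0036) and H3c14 (0.031) then changed sign.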

Other observations

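Genes that process histone mRNA and genes that carry or deposit histones were read as well, where 2.63% of all tested genes were called higher and 5.08% lower. Of 25 processing genes 24 were tested and 0 were called by edgeR, DESeq2 or limma-voom in either direction (10 higher and 0 lower at an unadjusted p under 0.05), with a median log2 fold change of 0.12 and a range of -0.26 to 0.37. Slbp, which binds the stem-loop, had 0.27 ± 0.13, Npat, the cofactor of histone transcription, 0.16 ± 0.06, and Lsm11 of the U7 particle 0.17 ± 0.08. Casp8ap2 (0.30 ± 0.07, adjusted p = 0.00875), Cpsf4 (0.30 ± 0.09, adjusted p = 0.0286) and Eri1, a nuclease that acts on the stem-loop (0.28 ± 0.05, adjusted p = 0.0017), passed the adjusted p and were under the fold threshold. Of 27 chaperone genes 1 was called, Asf1b, the H3–H4 chaperone of dividing cells, at 10.5 ± 0.989 CPM in siNC and 16 ± 2.08 CPM in siEgr2 (0.62 ± 0.10, adjusted p = 0.000442). At an unadjusted p under 0.05, 14 chaperone genes were higher and 1 lower, and their summed level was 2880 to 3106 CPM in siNC and 3191 to 3310 CPM in siEgr2, without overlap. As a share of all counts the sum overlapped, at 0.316% ± 0.00909 in siNC and 0.307% ± 0.0119 in siEgr2. Asf1a, the relative of Asf1b, had -0.18 ± 0.09. Chaf1a (0.39 ± 0.07) and Chaf1b (0.47 ± 0.11), subunits of the assembly factor of replicated DNA, were likewise past the adjusted p and under the fold threshold, while Hira, which deposits H3.3, had 0.07 ± 0.05.

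Of the remaining marker lists, astrocyte genes fell in 5 of 8 (Gfap, Aqp4, Aldh1l1, Slc1a3 and Slc1a2) and fibroblast and pericyte genes in 2 of 7. Endothelial genes fell in 1 of 3 tested, where 5.08% of all tested genes were called lower, and 0 microglial, neuronal or ependymal genes were called by edgeR, DESeq2 or limma-voom. At an unadjusted p under 0.05, 0 microglial genes passed, 1 neuronal gene was higher and 1 lower, and 1 ependymal gene was lower. Microglial markers summed to 3.8 to 9.38 CPM over all libraries, with Aif1 at 0, and Cldn5 of the endothelial list was at 0. Neuronal markers summed to 389 to 653 CPM.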
